A study of Mus musculus with 9 samples.

Results

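Decorin (Dcn) and biglycan (Bgn) are the best known members of the small leucine-rich proteoglycans, secreted proteins of connective tissue. Both genes were taken by symbol from the deposited expression table, so they are 2 of 10340 genes, and both were present in all 9 libraries. They were picked with their values in these libraries known, so their levels are given as a description and carry no test.

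Messenger RNA was measured by stranded RNA sequencing in monolayers of NIH 3T3, a fibroblast line that was established from mouse embryos and grows without limit on plastic. Every group carried a lentiviral short hairpin RNA and had been selected for it, the controls included. The control hairpin, shControl, is directed at red fluorescent protein, which these cells lack. The hairpins shCNKSR2_1 and shCNKSR2_2 carry independent sequences against Cnksr2, which encodes a scaffold of the Ras pathway. Each of the 3 groups held 3 independent cultures, so n = 3 for every mean and SD below. Cnksr2 itself was not analysed here, so the comparisons are between hairpins and not between known levels of their target.

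Decorin and biglycan have a core of leucine-rich repeats that carries chondroitin or dermatan sulphate chains. Decorin wraps collagen fibrils and limits their lateral growth, holds TGF-beta in the matrix, and binds the receptors EGFR and Met. Biglycan, encoded on the X chromosome, shares collagen and TGF-beta binding and, when released from the matrix, is known as a ligand of the innate receptors TLR2 and TLR4 and of purinergic P2X receptors. Fibroblasts are a main source of both.

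Values are FPKM, a fragment count divided by the library's mapped fragments and the transcript's length, so levels can be set side by side between genes. Column sums lay between 437208 and 450776 FPKM, and every value in the table was above 1 FPKM. The depth in fragments is unknown. Replicate 1 of shCNKSR2_1 stood apart from its group: the median absolute difference per gene on the log2(FPKM + 1) scale was 0.076 and 0.081 from replicates 2 and 3, against 0.034 to 0.0646 for the other 7 pairs of replicates. Of 8 fibroblast markers 7 were measured, with a summed level of 6243 to 6515 FPKM in controls, 6836 to 6982 with shCNKSR2_1 and 6395 to 6962 with shCNKSR2_2. Most of that sum came from S100a4 and Vim. None of the 5 epithelial, 4 endothelial and 3 adipocyte markers was measured, and of 5 leukocyte markers only Cd68 was, at 1.90 to 3.58 FPKM over the 9 libraries.

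Decorin messenger was lower in every library with a Cnksr2 hairpin than in any control library. The control libraries gave 169, 190 and 168 FPKM. With shCNKSR2_1 the values were 39.9, 28.8 and 26.4 FPKM, and with shCNKSR2_2 they were 22.5, 22.9 and 22.3 FPKM. The 3 groups did not overlap, and the order from high to low was shControl, shCNKSR2_1, shCNKSR2_2. Within shCNKSR2_1 the highest library was replicate 1, the library that stood apart, whereas the shCNKSR2_2 libraries were nearly equal. In bulk RNA, fewer cells that make a transcript and less transcript per cell cannot be told apart. Of the 7 fibroblast markers, 2 rose and 2 fell with shCNKSR2_1, and 2 rose and 4 fell with shCNKSR2_2, in the limma fit described further on. In that fit 13.6% of all genes rose and 19.3% fell with shCNKSR2_1, against 20.0% and 28.2% with shCNKSR2_2. The receptor genes Pdgfra (-0.43 and -0.67) and Pdgfrb (-0.35 and -0.70) fell on the log2 scale with both hairpins, as Dcn was lower, while Thy1 (0.93 and 0.28) and Vim (0.34 and 0.52) rose. Their part in the level of Dcn was not tested.

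Mean Dcn was 176 ± 12.3 FPKM (SD) for shControl, against 31.7 ± 7.17 for shCNKSR2_1 and 22.6 ± 0.298 for shCNKSR2_2. These are 18.0% and 12.8% of the control mean, so that controls were 5.55 and 7.79 times as high. The differences of mean log2(FPKM + 1) were -2.45 ± 0.12 and -2.91 ± 0.12. The SE here and for Bgn is the moderated one of the limma fit over all 9 libraries. That fit shares 1 variance over the groups and draws it towards that of genes of similar level. The pooled SD of Dcn itself was 0.1845 on the log2 scale. The coefficient of variation of Dcn was 6.97% in controls, 22.6% with shCNKSR2_1 and 1.32% with shCNKSR2_2. On the log2 scale, 0.804 of the distance from the control mean to the mean of shCNKSR2_1 replicates 2 and 3 was covered by replicate 1. Between the hairpins, the difference of Dcn was -9.12 FPKM, lower with shCNKSR2_2, a log2 difference of -0.45 ± 0.12. Without replicate 1 of shCNKSR2_1 that difference was -0.28, so the size of the gap between the hairpins depends on that library.

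Biglycan was far more abundant and changed less than Dcn on the log2 scale. Its levels were 803, 825 and 840 FPKM in controls, 896, 794 and 868 FPKM with shCNKSR2_1, and 724, 656 and 667 FPKM with shCNKSR2_2. The shCNKSR2_1 libraries lay on both sides of the controls, while all 3 shCNKSR2_2 libraries were below every other library. The order of the means was shCNKSR2_1, shControl, shCNKSR2_2, and the first pair of neighbours did not differ beyond their spread.

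Mean Bgn was 822 ± 18.7 FPKM for shControl, against 853 ± 52.7 for shCNKSR2_1 and 683 ± 36.7 for shCNKSR2_2. They correspond to 104% and 83.0% of the control mean. The log2 difference from controls was 0.05 ± 0.05 with shCNKSR2_1, and its sign turned to -0.02 under quantile normalization. With shCNKSR2_2 the log2 difference was -0.27 ± 0.05, and between the hairpins it was -0.32 ± 0.05. Replicate 1 was the highest shCNKSR2_1 library for Bgn as it was for Dcn.

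Groups that do not overlap were common in this table, and the members are to be seen beside that share. Between shCNKSR2_1 and shControl 1 of the 2 genes, Dcn, did not overlap, against 44.2% of all genes, 26.6% being lower as Dcn was. Between shCNKSR2_2 and shControl neither gene overlapped, against 59.6% of all genes, 34.7% being lower. Between the hairpins neither overlapped, against 37.9% of all genes, 19.5% being lower with shCNKSR2_2. Since the genes were chosen on these comparisons, nothing is read from those counts.

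The balance between the proteoglycans differed between the hairpin and control libraries. In control libraries Bgn was 4.75, 4.34 and 4.99 times as high as Dcn. The ratio was 22.5, 27.6 and 32.9 with shCNKSR2_1 and 32.1, 28.7 and 29.9 with shCNKSR2_2. The hairpin groups overlapped in this ratio and neither overlapped the controls. Decorin supplied 17.6 ± 1.02% of the summed FPKM of the pair in controls, 3.57 ± 0.656% with shCNKSR2_1 and 3.21 ± 0.178% with shCNKSR2_2.

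Summed over the pair, the level was 998 ± 23.3 FPKM for shControl, against 885 ± 57.2 for shCNKSR2_1 and 705 ± 36.6 for shCNKSR2_2. On the FPKM scale the loss with shCNKSR2_2 was similar for the members, with differences from controls of -153 FPKM for Dcn and -139.8 FPKM for Bgn. With shCNKSR2_1 the difference was -144 FPKM for Dcn, while the mean of Bgn was 30.4 FPKM above that of controls, less than the SD of the shCNKSR2_1 group.

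**Figure D1:**
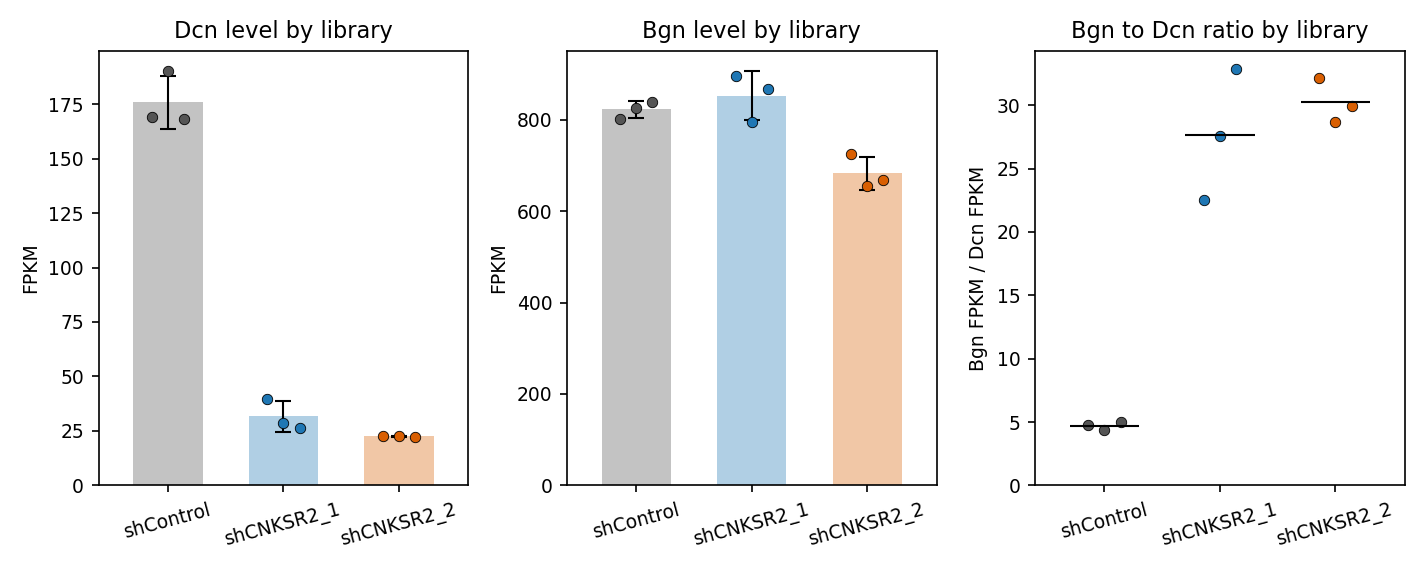
FPKM of Dcn (left) and Bgn (middle) and the ratio of Bgn to Dcn (right) in the 9 libraries, with points for libraries, bars for group means with SD as error bars, and a line for the mean ratio. Dcn falls from 168 to 190 FPKM in controls to at most 39.9 FPKM with either hairpin, Bgn stays between 656 and 896 FPKM throughout, and the ratio goes from at most 4.99 to at least 22.5.

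Among all genes, Dcn had lower ranks in the hairpin libraries than in controls. By FPKM it ranked 364, 315 and 371 of 10340 genes in controls, 1855, 2588 and 2822 with shCNKSR2_1, and 3266, 3208 and 3273 with shCNKSR2_2. Bgn ranked between 78 and 109 in all 9 libraries, with its lowest ranks, 96, 109 and 107, under shCNKSR2_2. By log2 difference from controls, Dcn was the gene 5th from the bottom with shCNKSR2_1 and 8th from the bottom with shCNKSR2_2. In those comparisons 43 and 83 of all genes were lower by more than 1 on the log2 scale. Genes at or below 1 FPKM in any library are absent from this ranking, and the added 1 FPKM shrinks the differences of low genes. The ranks thus hold for the 10340 genes on this scale and not for the whole transcriptome.

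Bgn lay inside the bulk of genes with shCNKSR2_1, where it was 3027th from the top. It was 1200th from the bottom with shCNKSR2_2 and 374th from the bottom between the hairpins. The median gene differed by -0.02, -0.03 and -0.001 on the log2 scale in the 3 comparisons. Both hairpin comparisons use the same control libraries and are not independent of each other.

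**Figure D2:**
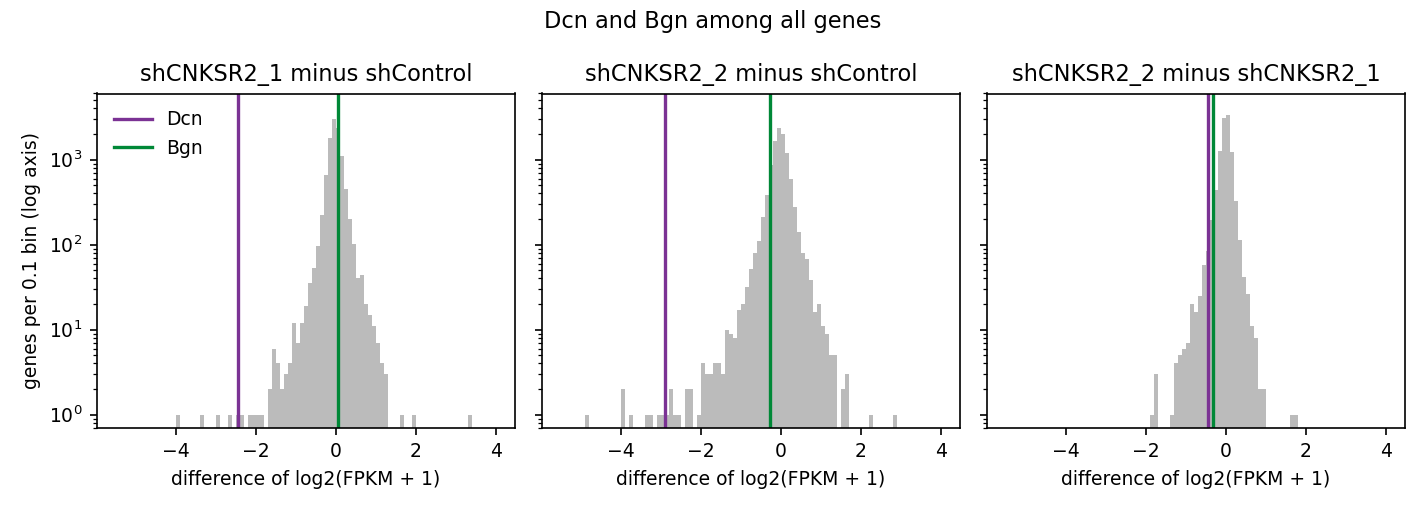
Distribution of the difference of mean log2(FPKM + 1) over 10340 genes in each comparison (x axis, bins of 0.1, with the number of genes on a log y axis), with lines at Dcn and Bgn. Dcn lies in the far lower tail against controls, at -2.45 and -2.91, and Bgn lies at 0.05 and -0.27. Between the hairpins the lines lie near each other, at -0.45 and -0.32.

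The genes whose pattern was most like that of each member were found by the root mean square difference over the 9 libraries of log2(FPKM + 1), each gene centred on its own mean. For Dcn they were Fas, Cbr2, Ccl2, Cxcl12 and C1s1, at 0.126, 0.22, 0.223, 0.335 and 0.351. Fas, the death receptor, averaged 19.8 ± 1.02 FPKM for shControl, 3.19 ± 0.413 for shCNKSR2_1 and 2.15 ± 0.221 for shCNKSR2_2. Cbr2, a carbonyl reductase, went from 25.2 ± 1.77 to 3.16 ± 0.717 and 1.53 ± 0.104 FPKM. The chemokine gene Ccl2 averaged 439 ± 11.4, 97.3 ± 6.69 and 61.9 ± 1.69 FPKM, and the stromal chemokine gene Cxcl12 averaged 40.8 ± 0.601, 12.1 ± 2.05 and 5.34 ± 0.22 FPKM. C1s1, a complement protease with a similar gene copy among which fragments may be split, averaged 58.2 ± 1.59, 18.5 ± 6.56 and 8.26 ± 0.615 FPKM. These genes were selected for their likeness, so their changes are listed without a test. The ranking was made only with 1 FPKM added before the log, which matters for genes as low as Fas and Cbr2. Over the alternative settings that kept all libraries, the lowest differences from controls were -3.01 and -4.04 for Cbr2 and -2.63 and -3.20 for Fas. Those of Dcn were -2.49 and -2.96.

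The patterns nearest to Bgn were Shisa4, Tnfrsf1a, Gstm1, Hdac5 and Cxx1c, at 0.0364, 0.0387, 0.0398, 0.0447 and 0.0498. Tnfrsf1a, the main TNF receptor, averaged 63.4 ± 2.37 FPKM for shControl, 66.9 ± 3.08 for shCNKSR2_1 and 54.1 ± 1.80 for shCNKSR2_2. The class II histone deacetylase gene Hdac5 averaged 24.4 ± 1.25, 24.6 ± 2.05 and 20.6 ± 0.975 FPKM. Shisa4, a membrane protein gene, averaged 17.3 ± 0.224, 18.2 ± 1.61 and 13.9 ± 1.14 FPKM. The glutathione transferase gene Gstm1 averaged 48.4 ± 1.02, 50.7 ± 2.68 and 40.6 ± 2.93 FPKM, and Cxx1c averaged 8.54 ± 0.327, 8.93 ± 0.874 and 6.91 ± 0.602 FPKM. Gstm1 and Cxx1c have close paralogues, so the assignment of their fragments is uncertain. These distances are smaller than those around Dcn, and Bgn itself varied over a narrower range than Dcn.

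**Figure D3:**
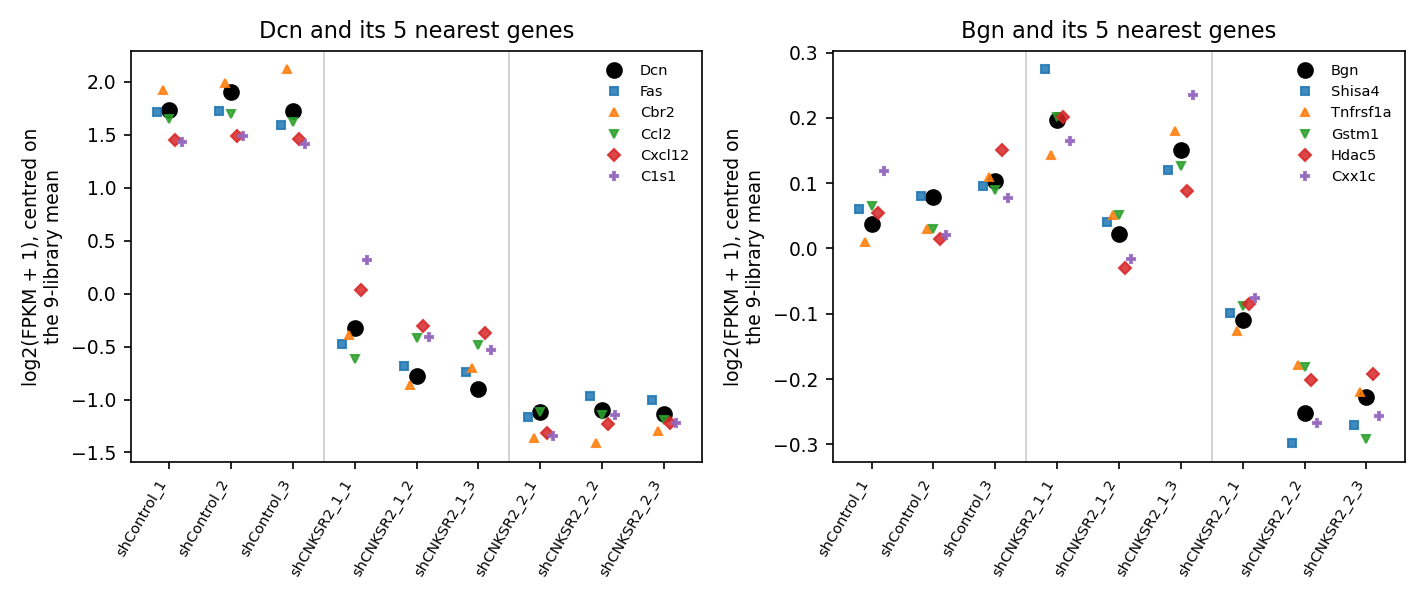
Centred log2(FPKM + 1) in the 9 libraries (x axis) for Dcn and its 5 nearest genes (left) and for Bgn and its 5 nearest genes (right), 1 symbol per gene. The genes near Dcn are high in all 3 controls and low in all 3 shCNKSR2_2 libraries. Those near Bgn are set apart by the 3 shCNKSR2_2 libraries.

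In the RefSeq annotation of GRCm38.p6, a later build than the mm9 named in the submitters' processing notes, Dcn lies on chromosome 10 and Bgn on the X chromosome. Dcn sits there beside Lum, Kera and Epyc, which are small leucine-rich proteoglycan genes too and were not analysed here. The nearest measured genes on either side were Btg1, an antiproliferative factor, and Atp2b1, a plasma membrane calcium pump. With shCNKSR2_1 their log2 differences were -0.18 and -0.16 (limma adjusted p = 0.00409 and 0.0118), and with shCNKSR2_2 they were -0.11 and 0.11. Both calls with shCNKSR2_2 were lost without any of 5 single libraries (limma adjusted p from 0.0577 to 0.125 for Btg1 and from 0.0538 to 0.115 for Atp2b1). Median-ratio rescaling and quantile normalization ended that of Btg1 too (limma adjusted p = 0.123 and 0.0751). Beside Bgn, the spindle gene Haus7 was at -0.07 and -0.11, the second call being lost without any of 7 single libraries (limma adjusted p from 0.0504 to 0.144). The same scalings ended that call of Haus7 (limma adjusted p = 0.125 and 0.128). Dusp9, a phosphatase of ERK on the other side, did not pass with shCNKSR2_1 (-0.05) and rose by 0.32 with shCNKSR2_2, where Bgn was lower (limma adjusted p = 0.00418).

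Genes of proteoglycan biology, including a list for heparan sulphate, a chain type that decorin and biglycan do not carry, were then tested in 1 limma fit over all 9 libraries and 10340 genes. A gene was called at a Benjamini-Hochberg adjusted p under 0.05 over all genes. Like the members, the lists were chosen with earlier results of these data known. Their counts and p-values therefore describe the listed genes in these libraries and are no independent test of a list. Over 7 lists, 93 genes other than Dcn and Bgn were measured of 155. With shCNKSR2_1, 27 rose and 24 fell, and with shCNKSR2_2, 22 rose and 46 fell. Over the whole table, genes called made up 32.8% for the first hairpin, 48.2% for the second and 20.5% for their direct comparison. Of all genes 13.6% rose and 19.3% fell with shCNKSR2_1, and 20.0% rose and 28.2% fell with shCNKSR2_2. Between the hairpins 7 were higher and 38 lower with shCNKSR2_2, where 9.13% and 11.4% of all genes were. The first of these counts was 4 without replicate 1 or replicate 3 of shCNKSR2_2. Median-ratio rescaling turned the split of all called genes with shCNKSR2_1 from 1405 higher and 1991 lower to 1794 and 1564, and quantile normalization turned that with shCNKSR2_2 from 2066 and 2918 to 2533 and 2296. In the lists those settings gave 28 higher and 18 lower with shCNKSR2_1 and, under quantile normalization, 25 and 44 with shCNKSR2_2. Without replicate 1 of shCNKSR2_1 the counts were 26 and 26 with that hairpin. Every list count below is to be seen beside the shares of all genes given here.

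**Figure D4:**
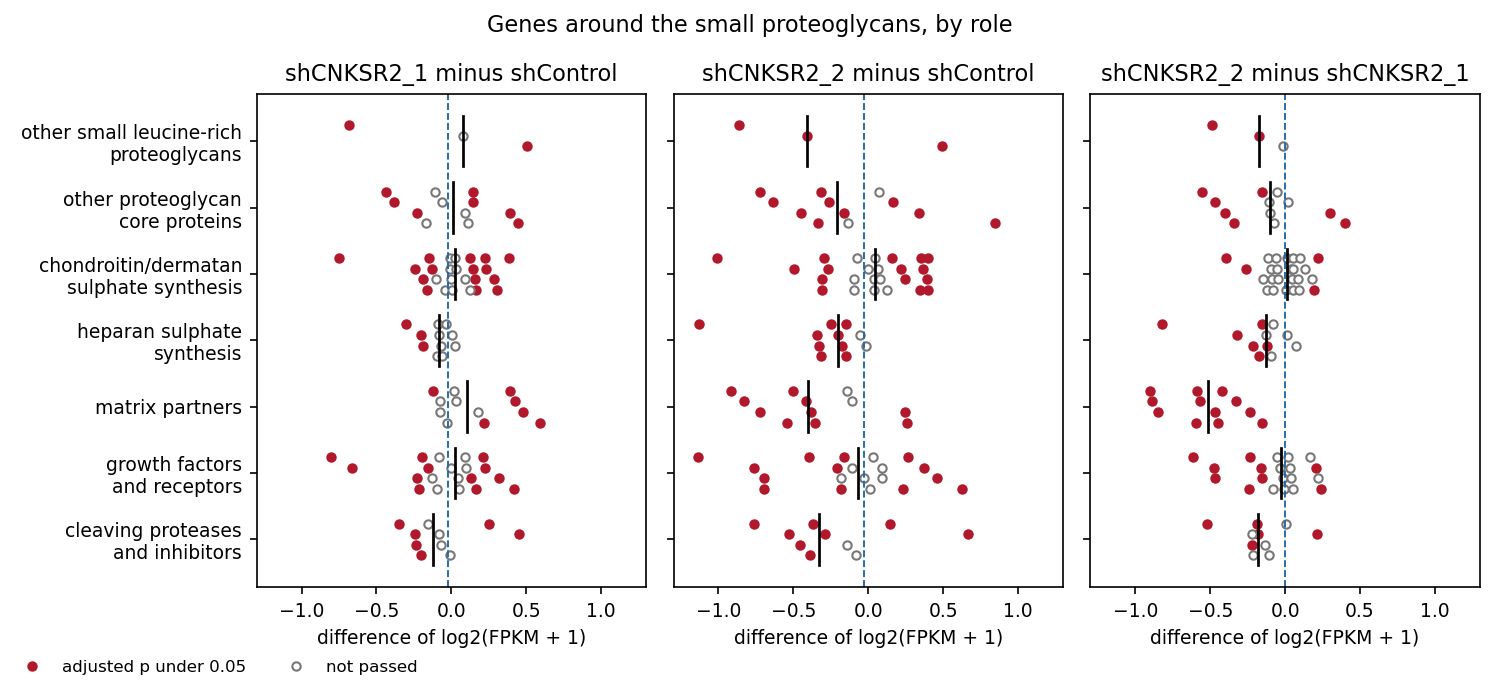
Difference of mean log2(FPKM + 1) (x axis) for the measured genes of 7 lists (rows) in the 3 comparisons, with filled points at an adjusted p under 0.05, open points for the rest, a black bar at the list median and a dashed line at the median of all genes. The widest shift is that of the matrix partners between the hairpins, where the list median is -0.52 and all 12 points are filled.

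Of the other small leucine-rich proteoglycans 3 of 15 were measured, each at a far lower level than Bgn, and they went different ways. Tsku (tsukushi), a secreted inhibitor of developmental signals, fell from 16.9 ± 1.16 FPKM to 10.1 ± 0.281 under the first hairpin and 8.86 ± 0.473 under the second, log2 differences of -0.69 and -0.86 (SE 0.05, limma adjusted p = 4.75e-06 and 5.36e-07). Podnl1, a podocan-like member of the family, rose from 8.33 ± 0.763 FPKM to 12.2 ± 0.857 and 12.1 ± 0.723, log2 differences of 0.51 and 0.49 (SE 0.07, limma adjusted p = 2.88e-04 and 1.70e-04). Ogn (osteoglycin or mimecan) averaged 2.39 ± 0.169, 2.63 ± 0.899 and 1.55 ± 0.148 FPKM. It fell by 0.41 with shCNKSR2_2 (limma adjusted p = 0.0241), a call lost when shControl or shCNKSR2_2 replicate 1 or 3 was left out (limma adjusted p from 0.0589 to 0.076). None of the 3 came near the change of Dcn in size.

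Other proteoglycan core proteins, measured for 12 of 26 genes, rose in 4 and fell in 3 cases with shCNKSR2_1 and rose in 3 and fell in 7 with shCNKSR2_2, with medians of 0.01 and -0.21. Cspg4 (NG2), a membrane chondroitin sulphate proteoglycan, went the other way from Dcn, from 12.3 ± 0.83 FPKM to 17.2 ± 2.66 and 22.9 ± 0.533, log2 differences of 0.45 and 0.85 (limma adjusted p = 0.00331 and 2.67e-05). Tgfbr3 (betaglycan), a co-receptor of TGF-beta, fell by 0.38 and 0.72. Versican (Vcan), a large chondroitin sulphate proteoglycan of the matrix, averaged 121 ± 4.26, 108 ± 19.3 and 77.4 ± 3.17 FPKM and fell by 0.64 with shCNKSR2_2. Its shCNKSR2_1 difference of -0.17 did not pass (limma adjusted p = 0.193) but did without replicate 1 of that hairpin (limma adjusted p = 6.04e-04). The syndecan gene Sdc4 fell by 0.45 with shCNKSR2_2 and was at 0.11 with shCNKSR2_1, which did not pass. Sdc3 fell by 0.44 with shCNKSR2_1 and was at -0.13 with shCNKSR2_2, a value that passed without shCNKSR2_2 replicate 1 (limma adjusted p = 0.0308).

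Enzymes and transporters that build the chondroitin and dermatan sulphate chains of decorin and biglycan were measured for 25 of 30 genes. With each hairpin 9 rose and 6 fell, and the list medians of 0.02 and 0.05 were near those of all genes. With shCNKSR2_1 the counts were 3 and 2 when its replicates 2 and 3 were left out together, and 5 rose when only the groups compared were fitted. Pxylp1, the phosphatase that removes the phosphate from the xylose of the linker, changed most. It went from 15.1 ± 0.655 FPKM to 8.57 ± 0.353 and 7.0 ± 0.245, log2 differences of -0.75 and -1.01 (SE 0.04, limma adjusted p = 8.84e-07 and 6.46e-08). Papss1, which makes the sulphate donor, rose by 0.30 and 0.40, and the chondroitin polymerising factor gene Chpf2 rose by 0.38 and 0.39. Slc35d1, a nucleotide sugar transporter, rose by 0.40 with shCNKSR2_2 and was at 0.22 with shCNKSR2_1, a call lost without any of 7 single libraries (limma adjusted p from 0.0502 to 0.13). The chondroitin sulphotransferase gene Chst12 fell by 0.49 with shCNKSR2_2 and did not pass with shCNKSR2_1, at -0.10.

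The list of heparan sulphate synthesis was included for contrast, but the lists do not fully separate the chain types. The chondroitin and dermatan sulphate list also holds linker and sulphate donor genes, such as Pxylp1 and Papss1, which heparan sulphate needs too. Of the heparan sulphate list, 11 of 20 genes were measured. With shCNKSR2_1 0 rose and 3 fell, and with shCNKSR2_2 0 rose and 9 fell, with medians of -0.08 and -0.20. The 3 calls with shCNKSR2_1 fell to 0 without its replicates 2 and 3. Sulf2, which removes sulphate from finished chains outside the cell, fell from 5.14 ± 0.282 FPKM to 3.98 ± 0.359 and 1.81 ± 0.194, log2 differences of -0.30 and -1.13 (limma adjusted p = 0.00537 and 4.50e-07). The polymerase gene Ext2 fell by 0.20 and 0.33 and the sulphotransferase gene Hs6st2 by 0.19 and 0.34. Hs2st1 and Hs6st1, other sulphotransferase genes, fell by 0.31 and 0.25 with shCNKSR2_2 and did not pass with shCNKSR2_1, at 0.004 and -0.04.

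Genes of matrix proteins that bind decorin or biglycan differed in level between the hairpins. Of 12 measured genes of 17, 5 rose and 1 fell with shCNKSR2_1, and 2 rose and 8 fell with shCNKSR2_2, with medians of 0.10 and -0.40. The shares of all genes were 13.6% and 19.3% with shCNKSR2_1 and 20.0% and 28.2% with shCNKSR2_2. The fallen gene with shCNKSR2_1, Col5a2, at -0.12, is named after its value was seen, and the count was 0 without any of 7 single libraries, under both rescalings, without a variance trend, with only the groups compared, and with replicate number as a block. Between the hairpins all 12 were lower with shCNKSR2_2 and 0 higher, with a median of -0.52 and 11 or 12 called when any 1 library was left out. Of all genes 11.4% were lower there and 9.13% higher. Dcn and Bgn, at -0.45 and -0.32 in that comparison, lay within the range of the list, -0.90 to -0.15.

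Col1a1, the main chain of the collagen that decorin coats, averaged 162 ± 13.3 FPKM for shControl, 160 ± 17.3 for shCNKSR2_1 and 85.3 ± 1.97 for shCNKSR2_2. It did not pass with shCNKSR2_1 (-0.03) and fell by 0.92 with shCNKSR2_2 (SE 0.07, limma adjusted p = 4.05e-06). Col3a1 likewise was at 0.02 and fell by 0.83, the fibrillin gene Fbn1 was at -0.07 and fell by 0.54, and the microfibril gene Mfap5 was at 0.18 and fell by 0.72. Fibronectin (Fn1) rose with both hairpins, by 0.59 and 0.26, from 479 ± 14.9 FPKM. The other genes that rose with shCNKSR2_1 are named after their values were seen. They were Col6a1 (0.42), Col6a2 (0.48), Col6a3 (0.40) and Thbs1 (0.22). With shCNKSR2_2 Col6a3 rose by 0.24 and Thbs1 fell by 0.38, while Col6a1 (-0.14) and Col6a2 (-0.11) did not pass. The shCNKSR2_1 libraries did not go together for Col3a1, with 15.5 FPKM in replicate 1, above every control (11.6 to 12.4 FPKM), and 10.8 and 10.6 FPKM in replicates 2 and 3, below every control. With replicate 1 as the only shCNKSR2_1 library, the difference of Col3a1 was 0.35 (limma adjusted p = 0.00991).

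Growth factors and receptors that decorin or biglycan bind or act through were measured for 20 of 29 genes. With shCNKSR2_1 6 rose and 6 fell, and with shCNKSR2_2 5 rose and 8 fell. The 6 that fell with shCNKSR2_1 became 3 without shControl replicate 1 or 2 and under either rescaling, and the 6 that rose became 3 without replicates 2 and 3 of shCNKSR2_1. Tlr2, an innate receptor that biglycan activates, fell from 5.15 ± 0.248 FPKM to 2.90 ± 0.52 and 1.79 ± 0.076, log2 differences of -0.67 and -1.14 (SE 0.08, limma adjusted p = 1.25e-04 and 1.51e-06). P2rx4, a purinergic receptor, fell from 13.4 ± 0.187 FPKM to 7.25 ± 0.0562 and 7.49 ± 0.41, log2 differences of -0.80 and -0.76 (SE 0.04, limma adjusted p = 2.91e-07 and 2.67e-07). The receptors did not all fall. Met and Tlr4 are named after their values were seen. Met rose by 0.23 and 0.46 (limma adjusted p = 0.00397 and 1.96e-05). Tlr4 fell by 0.20 with shCNKSR2_1 (limma adjusted p = 0.0259) and did not pass with shCNKSR2_2, at -0.03.

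Among the soluble partners, Ctgf, a matricellular growth factor that binds decorin, rose by 0.42 and 0.63, from 54.7 ± 3.57 FPKM. Hgf, the ligand of the decorin receptor Met, averaged 20.8 ± 0.705, 19.6 ± 2.02 and 12.4 ± 0.615 FPKM and fell by 0.70 with shCNKSR2_2. Its difference of -0.08 with shCNKSR2_1 did not pass, but did without replicate 1 of that hairpin (limma adjusted p = 0.031). Wisp1, a relative of Ctgf that binds both proteoglycans, fell by 0.70 with shCNKSR2_2. Its value of -0.23 with shCNKSR2_1 was called (limma adjusted p = 0.0349), and the call was lost when any shControl library, or shCNKSR2_1 replicate 2 or 3, was left out (limma adjusted p from 0.0566 to 0.12), and with replicate number as a block (limma adjusted p = 0.0524).

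Proteases that process or cleave the core proteins, and their inhibitors, were measured for 10 of 18 genes. With shCNKSR2_1 2 rose and 4 fell, and with shCNKSR2_2 2 rose and 6 fell, with medians of -0.12 and -0.33. The 4 that fell with shCNKSR2_1 became 2 without its replicates 2 and 3. Bmp1, the protease that removes the propeptide of biglycan, fell from 15.9 ± 0.736 FPKM to 12.3 ± 0.125 and 10.7 ± 0.075, log2 differences of -0.35 and -0.53 (SE 0.04, limma adjusted p = 6.49e-05 and 1.69e-06). Pcolce, which enhances the action of Bmp1 on procollagens, fell by 0.76 with shCNKSR2_2. With shCNKSR2_1 it was at -0.24, a call lost without shControl replicate 3 or shCNKSR2_1 replicate 2 (limma adjusted p from 0.052 to 0.0626). Mmp2, a gelatinase that cleaves decorin, fell by 0.20 and 0.39, and the metalloprotease inhibitor Timp2 fell by 0.24 and 0.46. Adamts1, a proteoglycan-cleaving protease, rose by 0.45 and 0.67, from 9.48 ± 0.278 FPKM.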

How the data were processed

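The submitters deposited FPKM, fragment values the authors scaled by transcript length and library size, with each library in its own column. STAR (given as version 25.1b), Cufflinks 2.2.1 and build mm9 are named, per the submitters' processing notes, and the role of each is not given in the sources used here. Genes that did not exceed 1 FPKM in all 9 libraries were not analysed here. Since counts were not used, the depth is unknown and values carry no counting interval. Values were taken to log2(FPKM + 1) and fitted in limma 3.58.1 (R 4.3.3) with a mean for each of 3 groups, eBayes with trend=TRUE and 6 residual degrees of freedom. Two-sided p-values were used, with Benjamini-Hochberg adjustment over 10340 genes within a comparison. A minimum mean of 1 FPKM removed 0 genes. A difference on this scale understates the ratio for genes near 1 FPKM. The fit was also run on simulated data with independent noise, of equal spread in all 9 libraries for a given gene. That simulation held no library that stands apart and no linked replicates, so it does not cover those features of the data.

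The members and gene lists were chosen with earlier results of these data known. Of the small leucine-rich proteoglycans all measured genes were named. Of each other list up to 5 called genes were named by the larger change of both hairpins, and the farthest gene the other way. The 5 nearest patterns (predicted genes left out) and the nearest measured gene on each side were named too.

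The labels do not say what a replicate number shares. Deviations from the group means of same-numbered shControl and shCNKSR2_1 libraries correlated at 0.12, 0.184 and 0.428, each above the limit of 0.1 set for pairing. Values with replicate number as a block therefore stand beside the results of that comparison whose call they change. Some differently numbered libraries passed the limit too. They include shControl replicate 1 with shCNKSR2_1 replicate 2, at 0.121, and shControl replicate 3 with shCNKSR2_2 replicate 1, at 0.445. The limit thus does not show that equal numbers share a batch. Over all 9 same-numbered pairs the range was -0.319 to 0.428, with 5 above 0.1. Of the same-numbered pairs with shCNKSR2_2, only those of replicate 2 met the limit, at 0.189 with shControl and 0.138 with shCNKSR2_1. Alternatives were other pseudocounts, minimum levels and scalings, no variance trend, only the groups compared, a replicate block, and leaving out each library. Leaving out replicates 2 and 3 of shCNKSR2_1 together was added after the data were seen.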

Additional observations from a re-analysis of the deposited data

How the results depend on the processing

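The differences of Dcn from controls kept their direction in every setting run, from -2.63 to -2.34 with shCNKSR2_1 and from -2.94 to -2.85 with shCNKSR2_2 when 1 library was left out. The difference of Bgn from controls with shCNKSR2_2 was -0.37 under quantile normalization. Without replicates 2 and 3 of shCNKSR2_1, where the lone library is assumed to vary like the other groups, Dcn was at -2.11 and Bgn at 0.12 against controls, and shCNKSR2_2 minus that library gave -0.79 and -0.39. That setting called 800 genes higher and 1060 lower with shCNKSR2_1, and 12 list genes lower. Among named genes it ended the shCNKSR2_1 calls of Btg1, Cspg4, Ext2, Hs6st2, Mmp2, Pcolce, Slc35d1, Sulf2 and Wisp1, and added those of Col3a1 (0.35), Dusp9 (-0.25), Ogn (0.46) and Sdc4 (0.25). Between the hairpins it ended the calls of Adamts1 and Tsku and added that of Slc35d1. Its smaller group is part of its construction. Between the hairpins, leaving out 1 library gave 500 to 1050 genes higher and 705 to 1283 lower, and 4 to 8 list genes higher.

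With replicate number as a block, 1339 genes were called higher and 1866 lower with shCNKSR2_1, 26 and 21 of them in the lists, where the 1 matrix partner called lower became 0. Of 141 results for named genes, that block ended 2 calls, Wisp1 with shCNKSR2_1 and Haus7 with shCNKSR2_2, and added 1, Ext2 between the hairpins. All same-numbered pairs met the pairing limit between shControl and shCNKSR2_1, and in the comparisons with shCNKSR2_2 only those of replicate 2 did. Over all settings, 2566 of 2664 values of named genes stayed on their side of the threshold, 81 lost a call, 17 gained one and 0 reversed. Most named genes of the lists were picked for being called, and others for their likeness to Dcn or Bgn. Of the 141 main results 114 passed, so the share that stayed follows in part from how the genes were picked. The lower limit of 1 FPKM in every library and the unknown depth limit what was measured.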
